A study of Mus musculus with 12 samples.

Results

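Enteroendocrine cells are the hormone-secreting cells of the gut lining, and their hormones and granule proteins were followed here through 10 genes in scraped mouse colon epithelium. The genes were taken by symbol: Insl5, Gcg, Pyy, Chga, Chgb, Tac1, Sct, Tph1, Neurod1 and Nts, which are 10 of the 24391 gene symbols measured. RNA of 12 libraries was sequenced, 4 each from control C57BL/6 mice, from mice given AOM and DSS, and from mice given AOM, DSS and curcumin, all at 18 weeks of age. AOM (azoxymethane) is a carcinogen and DSS (dextran sulfate sodium) a polymer that inflames the colon, and the pair is a standard way to produce colon tumours in mice. Curcumin is a polyphenol of turmeric, and the series title names its block of colitis-driven cancer as the subject. Doses and schedules are not given in the labels. Per the labels, tumours of the right colon and the proximal end were cut away first and the mucosa left was scraped off, so the samples are not dissected tumours. The groups are called control, AOM/DSS and curcumin below. Whether each library stands for its own animal is not labelled, so p-values measure only the spread between these samples.

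Enteroendocrine cells are scattered singly among absorptive and goblet cells, and they arise from crypt progenitors through the transcription factor Neurog3 and, after it, Neurod1. L cells of the distal gut store the peptides encoded by Gcg, Pyy and Insl5, while enterochromaffin cells make serotonin with the enzyme Tph1 and often carry the tachykinin gene Tac1. The granins Chga and Chgb are acidic proteins of the secretory granule, shared by most of these cells. A bulk measurement such as this cannot tell fewer cells of a type from less RNA per cell.

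Values are FPKM, read counts scaled to gene length and library depth, so levels can be compared between genes. The scaling does not correct for the GC difference between libraries given below, which also enters ratios of genes. Library depth ran from 5567988 to 15968416 reads, recovered from the steps of the FPKM values. The libraries also differed in a way that crosses the groups: genes rich in GC read higher in 5 libraries (replicates 0 and 1 of both AOM/DSS and curcumin, and replicate 0 of control) and lower in the other 7. Differences are therefore also given within the 5 GC-rich and the 7 AT-rich libraries, where the GC-rich set holds a single control. Group differences below are on the log2(FPKM + 1) scale, from limma over 12052 genes, with an adjusted p below 0.05 as the threshold for a call. They understate the change of low genes.

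Insl5 with Gcg and Chga with Chgb were the 2 most correlated pairs of these genes over the 12 libraries, so their promoter windows are shown. Each runs from 250 bases before to 50 after a RefSeq transcription start, 300 bases in the gene's direction, from the GRCm38.p6 build. The windows are Insl5 at chr4:103026679-103026978 (minus strand), Gcg at chr2:62483604-62483903 (minus), Chga at chr12:102554691-102554990 (plus) and Chgb at chr2:132781392-132781691 (plus). Capitals mark CAGATG, an E-box of the kind bound by Neurod1 and related factors, and TGACG, the core of the cyclic AMP response element, on either strand. In Chgb the capitals also cover the full element TGACGTCA, which contains TGACG on both strands.
Insl5: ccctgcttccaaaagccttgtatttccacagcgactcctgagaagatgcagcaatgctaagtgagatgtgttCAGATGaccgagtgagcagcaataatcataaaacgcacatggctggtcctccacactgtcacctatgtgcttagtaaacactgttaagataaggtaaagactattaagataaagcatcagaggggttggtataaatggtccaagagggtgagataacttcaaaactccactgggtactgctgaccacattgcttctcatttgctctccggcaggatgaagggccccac
Gcg: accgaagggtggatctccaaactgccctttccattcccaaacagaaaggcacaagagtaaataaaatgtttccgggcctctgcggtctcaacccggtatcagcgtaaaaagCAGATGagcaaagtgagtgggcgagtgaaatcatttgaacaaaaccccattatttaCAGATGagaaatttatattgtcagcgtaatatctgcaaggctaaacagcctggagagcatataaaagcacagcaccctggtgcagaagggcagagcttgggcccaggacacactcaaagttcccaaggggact
Chga: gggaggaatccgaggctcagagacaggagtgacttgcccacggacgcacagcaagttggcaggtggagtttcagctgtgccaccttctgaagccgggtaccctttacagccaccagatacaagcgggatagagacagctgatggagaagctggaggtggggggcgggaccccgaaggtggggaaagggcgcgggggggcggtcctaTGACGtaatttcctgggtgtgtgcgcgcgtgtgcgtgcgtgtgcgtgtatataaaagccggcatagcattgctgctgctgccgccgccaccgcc
Chgb: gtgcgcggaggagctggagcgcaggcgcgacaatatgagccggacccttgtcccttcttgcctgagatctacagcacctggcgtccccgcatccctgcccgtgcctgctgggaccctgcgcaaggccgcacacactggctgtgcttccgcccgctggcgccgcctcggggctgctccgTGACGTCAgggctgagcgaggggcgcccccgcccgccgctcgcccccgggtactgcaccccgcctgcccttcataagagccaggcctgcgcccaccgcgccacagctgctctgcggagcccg

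The printed Insl5 window held 1 CAGATG and the Gcg window 2, and neither held TGACG. Chga held TGACG and Chgb held TGACGTCA, and neither held CAGATG. Across all 10 genes, which have 13 windows in the RefSeq table, CAGATG was found for 4 (Insl5, Gcg, Tac1 and Sct) and TGACG for 5 (Chga, Chgb, Tac1, Tph1 and Nts). By window, 4 of the 13 held CAGATG, 6 held TGACG and 1 held TGACGTCA. Among all 32851 windows of the table, 17.2% held CAGATG, 20.8% held TGACG and 1.79% held TGACGTCA. The window of another annotated Insl5 start held neither CAGATG nor TGACG. A match of letters is a description of the window and does not show binding.

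Pyy was the most abundant of the 10 genes, with a median of 106.8 FPKM over the 12 libraries, followed by Insl5 at 62.7, Gcg at 20.3, Chga at 18.2 and Chgb at 15.5. Tac1 had a median of 8.91 FPKM, Sct of 5.95, Tph1 of 1.42, Neurod1 of 0.403 and Nts of 0.143. The ranges of every pair of neighbours in this order overlapped. Within libraries the order was firmer for some pairs: Insl5 was above Gcg, Sct above Tph1 and Tph1 above Neurod1 in 12 of 12 libraries, and Pyy was above Insl5 in 10 of 12. Gcg was above Chga in 8 of 12, and Chga above Chgb in 9 of 12. The spread within the set was wide, since the highest library exceeded the lowest by 5.75 times for Chgb and by 12.9 times for Tac1, with the other genes measured above 0 in every library between these bounds.

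**Figure D1:**
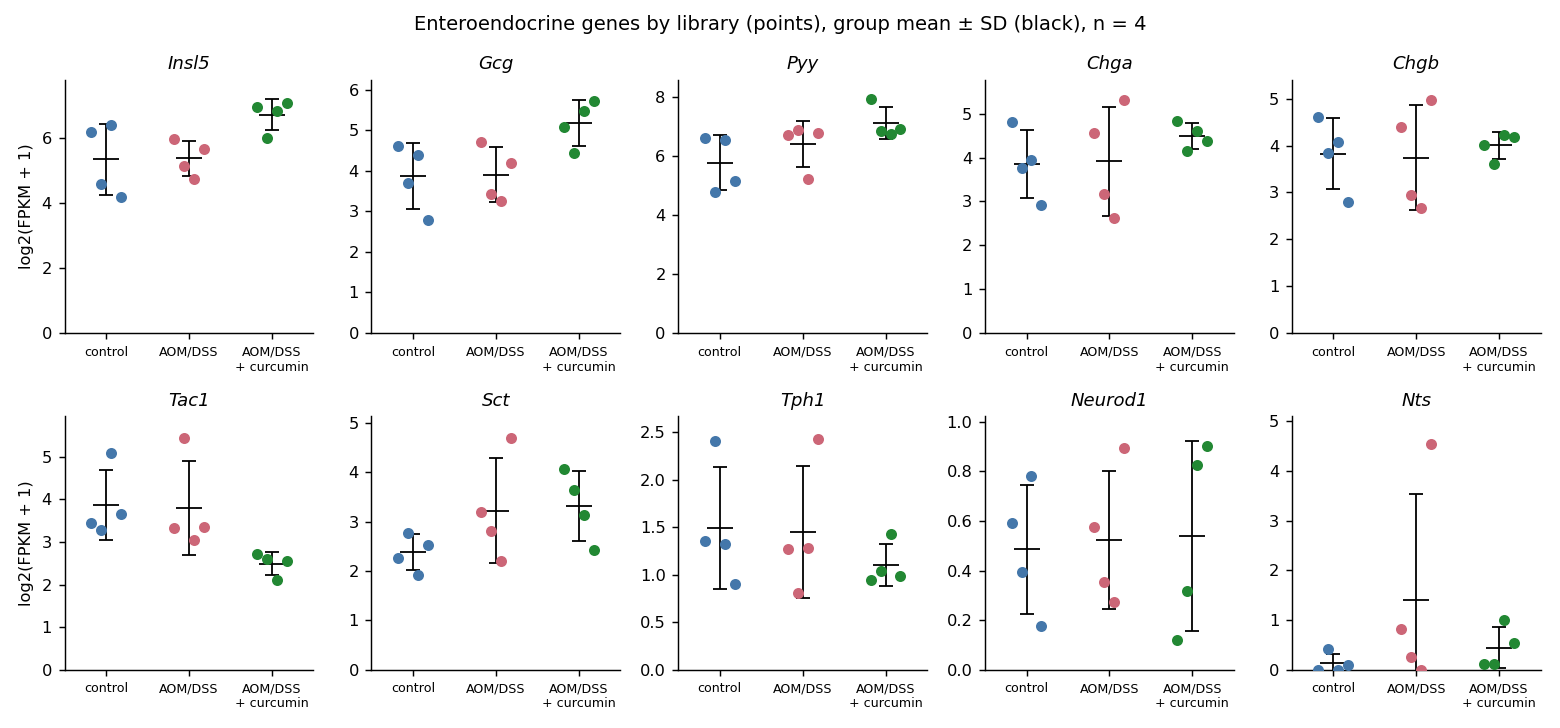
Each point is a library, the vertical axis is log2(FPKM + 1), and the black marks give the group mean ± SD (n = 4). The 4 curcumin libraries lie together for Tac1, at 3.30 to 5.58 FPKM, below all other libraries, and Nts stands out in a single AOM/DSS library at 22.4 FPKM.

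8 of the 10 genes passed the filter of at least 1 FPKM in 4 libraries, and Neurod1 and Nts did not. None of the 8 passed the threshold in any of the 3 comparisons, where limma called 1.27%, 1.08% and 0.141% of all genes, in the order AOM/DSS against control, curcumin against AOM/DSS and curcumin against control. At an unadjusted p below 0.05, 0 of 8 genes differed for AOM/DSS against control, where 13.5% of all genes did. In curcumin against AOM/DSS 3 of 8 did (Insl5, Gcg and Tac1), against 14.5% of all genes. For curcumin against control the count was 4 of 8 (the same 3 and Pyy), against 12.2% of all genes. These counts are a description: the genes were chosen with earlier results of these data known, and Insl5, Gcg and Pyy were correlated. The voom fit on recovered reads also called 0 of the 8 in each comparison. The comparisons share libraries: AOM/DSS enters the first pair, control the first and last, and curcumin the last pair. Their values are therefore not independent of each other, and both counts with curcumin rest on the same curcumin libraries.

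Insl5 encodes insulin-like peptide 5, an L-cell hormone of the colon that acts on the receptor Rxfp4. In control it was at 71.5, 23.2, 83.2 and 17.4 FPKM in replicates 0 to 3, and in AOM/DSS at 61.6, 34.5, 25.5 and 49.4. In curcumin it was at 123, 63.8, 112 and 135.5 FPKM. The curcumin libraries were all above the AOM/DSS libraries, while the lowest of them fell among the control libraries, which split into a high and a low pair. Curcumin minus AOM/DSS was 1.35 (SE 0.46, 95% interval 0.35 to 2.34, adjusted p = 0.195), and curcumin minus control was 1.38 (SE 0.46, adjusted p = 0.247). AOM/DSS minus control was 0.03, with an interval from -0.96 to 1.03. Within the GC-rich libraries curcumin minus AOM/DSS was 0.93 and curcumin minus control 0.31, and within the AT-rich libraries they were 1.76 and 1.89.

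Gcg encodes proglucagon, which L cells cut into the glucagon-like peptides GLP-1 and GLP-2. It was at 23.6, 12.1, 19.9 and 5.90 FPKM in control and at 25.4, 9.82, 8.63 and 17.4 in AOM/DSS. Curcumin libraries had 33, 20.6, 43.8 and 51.8 FPKM. Of these 4, curcumin replicate 1 lay among the others, and the remaining 3 were the highest of all 12 libraries. The difference was 1.28 for curcumin minus AOM/DSS (SE 0.42, interval 0.37 to 2.18, adjusted p = 0.18) and 1.31 for curcumin minus control (SE 0.42, adjusted p = 0.232). The fitted AOM/DSS minus control value was 0.03 (interval -0.87 to 0.94). The GC-rich libraries gave 0.68 for curcumin minus AOM/DSS and 0.14 for curcumin minus control, and the AT-rich libraries 1.87 and 1.98.

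Pyy encodes peptide YY, an L-cell hormone that slows the gut and lowers appetite. Control libraries had 98.35, 26.5, 92.7 and 35.2 FPKM and AOM/DSS libraries 105, 117, 36.8 and 109. Curcumin libraries had 247, 115.5, 108.5 and 120.5 FPKM. All 4 curcumin libraries were above all 4 control libraries, although the gap between the groups was narrow, and they overlapped with AOM/DSS. Curcumin minus control was 1.34 (SE 0.47, interval 0.34 to 2.35, adjusted p = 0.267), curcumin minus AOM/DSS 0.72 (adjusted p = 0.52) and AOM/DSS minus control 0.62 (adjusted p = 0.61). Within the GC-rich and the AT-rich libraries, curcumin minus control was 0.78 and 1.35.

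Groups without overlap were thus seen for Insl5 (curcumin above AOM/DSS), for Pyy (curcumin above control) and, in the other direction, for Tac1 in both comparisons with curcumin. This makes 1 of 8 genes higher and 1 of 8 lower in each of these comparisons. Over all genes tested, 4.95% were higher without overlap and 4.27% lower in curcumin against AOM/DSS, and 3.72% and 4.55% in curcumin against control. In AOM/DSS against control no member had groups without overlap, where 2.38% of all genes were higher and 3.63% lower in that way.

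**Figure D2:**
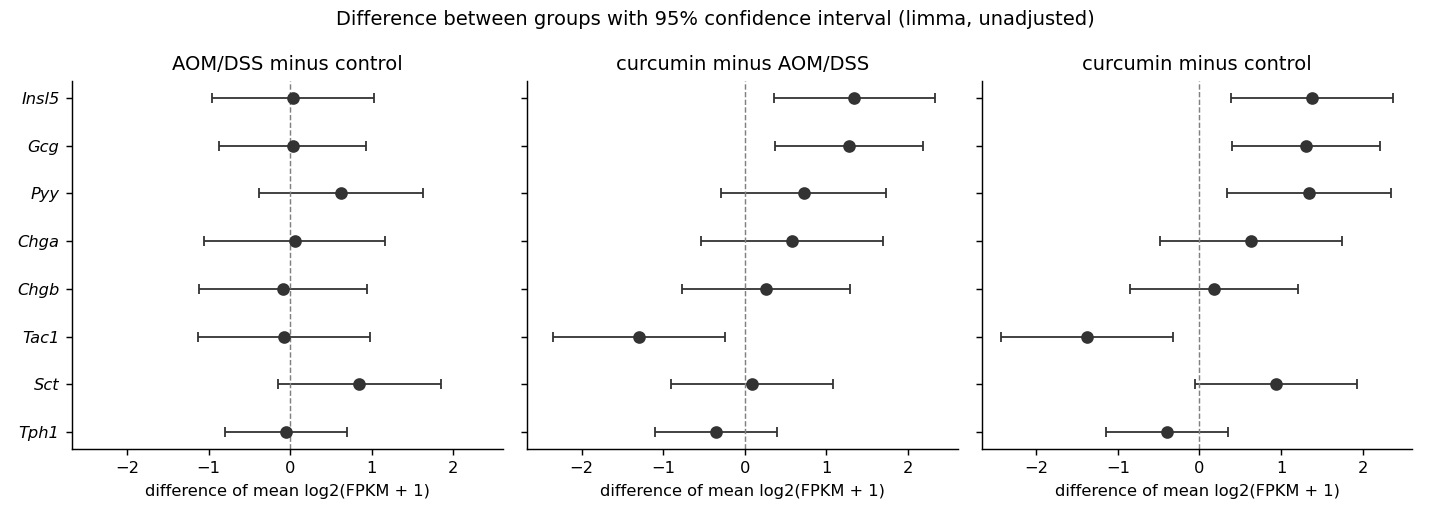
Points are differences of group means on the log2(FPKM + 1) scale for the 8 genes tested, bars are unadjusted 95% confidence intervals from limma, and the dashed line is at 0. The intervals of Insl5, Gcg and Tac1 leave out 0 in both comparisons with curcumin, that of Pyy in curcumin minus control, and none does in AOM/DSS minus control.

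Of the 28 pairs of tested members, 7 had an adjusted permutation p below 0.05 for Pearson's r. For Spearman's rho 2 of these, Insl5 with Gcg and Chga with Chgb, were also below 0.05. The permutations ran over all 12 libraries regardless of group, so a group difference that 2 genes share also enters r and its p-value. For Insl5 and Gcg the Pearson correlation over the 12 libraries was 0.953 (permutation p = 1e-05, the smallest that 100000 permutations can give) and Spearman's rho was 0.909 (permutation p = 7e-05). Adjusted over the 28 pairs, the p-values were 0.00028 and 0.00196. Without the 2 libraries farthest from the median of Insl5, r was 0.952, with group means removed it was 0.907, and within the 7 AT-rich libraries 0.959. The 5 GC-rich libraries are too few for a correlation. Insl5 was 1.92 to 4.18 times Gcg, with medians of 2.98 in control, 2.90 in AOM/DSS and 2.85 in curcumin. The ranges of this ratio overlapped between all 3 groups.

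Pyy followed Insl5 less closely, with r = 0.828 (adjusted permutation p = 0.0115) and rho = 0.664 (adjusted permutation p = 0.151). Leaving out the 2 libraries farthest from the median of Insl5 lowered r to 0.68, and with group means removed it was 0.78. The ratio of Pyy to Insl5 ranged from 0.889 to 3.39, and it was below 1 in curcumin replicates 2 and 3 alone. Pyy and Insl5 therefore differed in which curcumin library was highest: replicate 0 for Pyy and replicate 3 for Insl5 and Gcg.

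No group difference of the granins exceeded the spread between libraries. Chga, the precursor of several granule peptides and a general marker of these cells, was at 27.2, 12.6, 14.3 and 6.58 FPKM in control, at 22.6, 7.96, 5.14 and 38.8 in AOM/DSS, and at 27.7, 16.7, 23.3 and 19.7 in curcumin. Chgb, its relative in the same granules, was at 23.4, 13.4, 15.8 and 5.98 FPKM in control, at 19.9, 6.75, 5.33 and 30.6 in AOM/DSS, and at 15.2, 11.1, 17.7 and 17.3 in curcumin. For both genes the highest and the lowest library of all 12 were AOM/DSS replicates 3 and 2, and every pair of groups overlapped.

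Chga differed by 0.58 for curcumin minus AOM/DSS (SE 0.52, interval -0.54 to 1.69, adjusted p = 0.677) and by 0.63 for curcumin minus control (adjusted p = 0.653). Chgb differed by 0.26 (SE 0.48, adjusted p = 0.865) and 0.18 (adjusted p = 0.913). AOM/DSS minus control was 0.06 for Chga and -0.09 for Chgb. In each comparison the interval of both genes reached past a 2-fold change in at least 1 direction, so such a change was not excluded there. In both comparisons with curcumin the lower bounds stopped short of a 2-fold fall. They were -0.54 for Chga and -0.77 for Chgb against AOM/DSS, and -0.48 and -0.86 against control. Within the GC-rich libraries Chga and Chgb were lower in curcumin than in the 1 control, by -0.32 and -0.80, and within the AT-rich libraries higher, by 0.95 and 0.63.

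Chga and Chgb moved together as closely as Insl5 and Gcg. Their Pearson correlation was 0.948 (adjusted permutation p = 0.00042) and rho 0.86 (adjusted permutation p = 0.0101). It was 0.89 without the 2 libraries farthest from the median of Chga, 0.972 with group means removed and 0.982 within the 7 AT-rich libraries. Chga was 0.905 to 1.83 times Chgb. Between the pairs the relation was looser: r was 0.711 for Insl5 and Chga (adjusted permutation p = 0.0496), with rho = 0.615 (adjusted permutation p = 0.151). Gcg correlated with Chga at r = 0.753 (adjusted permutation p = 0.0328), and with Chgb at 0.695 and Pyy at 0.699 (adjusted permutation p = 0.0496 for each). Their rho values were 0.692, 0.622 and 0.594, with adjusted permutation p of 0.142, 0.151 and 0.158. With group means removed, r was 0.69 for Insl5 and Chga. For Gcg it was then 0.76 with Chga, 0.85 with Chgb and 0.543 with Pyy.

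**Figure D3:**
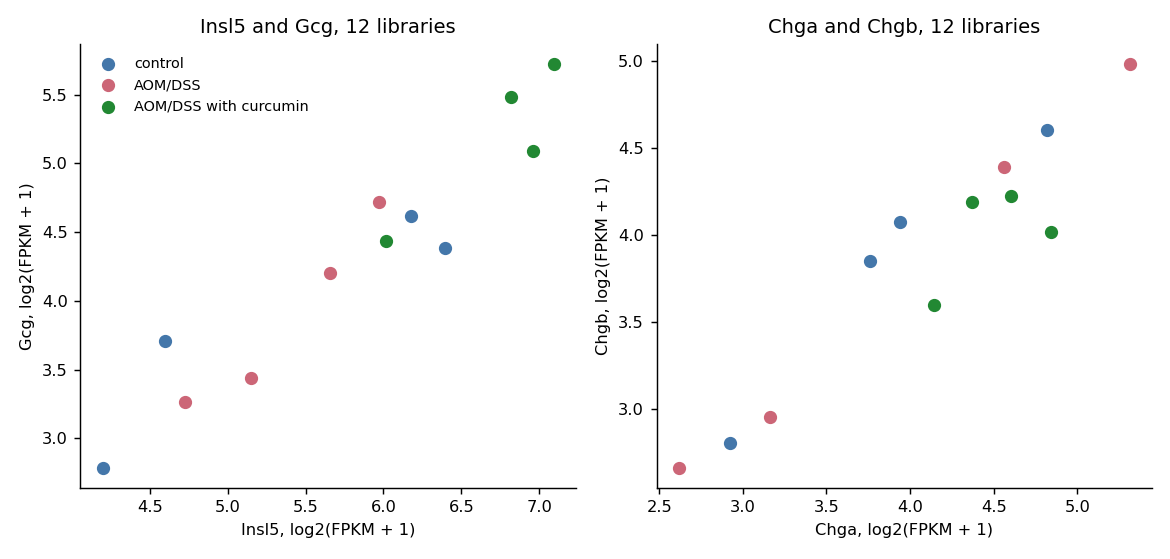
Each point is a library, coloured by group, with log2(FPKM + 1) of Insl5 against Gcg on the left and of Chga against Chgb on the right. Points of all 3 groups follow a single line in each panel (r = 0.953 and r = 0.948), and 3 of the 4 curcumin libraries lie at the upper end for Insl5 and Gcg but not for Chga and Chgb.

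Relative to Chga, the L-cell transcripts of the curcumin libraries overlapped with both other groups. Insl5 was 3.82 to 6.88 times Chga in curcumin, 1.27 to 4.96 times in AOM/DSS and 1.84 to 5.80 times in control. Gcg was 1.19 to 2.63 times Chga in curcumin, 0.449 to 1.68 times in AOM/DSS and 0.869 to 1.39 times in control. Pyy was 4.66 to 8.93 times Chga in curcumin, 2.81 to 14.7 times in AOM/DSS and 2.11 to 6.47 times in control. The highest Insl5 and Gcg ratios were those of curcumin replicate 3, and the highest Pyy ratio was that of AOM/DSS replicate 1. The lowest Insl5 and Gcg ratios were those of AOM/DSS replicate 3, where Chga was at its highest.

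Tac1 encodes the tachykinins substance P and neurokinin A, which in the gut come from enterochromaffin cells and from enteric neurons. It was at 9.96, 8.76, 33.15 and 11.5 FPKM in control and at 9.07, 42.6, 7.25 and 9.26 in AOM/DSS. In curcumin it was at 5.58, 5.05, 3.30 and 4.89 FPKM. All 4 curcumin libraries were below the other 8, and control replicate 2 and AOM/DSS replicate 1 were each far above the rest of their group. Curcumin minus AOM/DSS was -1.30 (SE 0.49, interval -2.35 to -0.25, adjusted p = 0.231) and curcumin minus control -1.38 (SE 0.49, interval -2.43 to -0.32, adjusted p = 0.278). Without AOM/DSS replicate 1, curcumin minus AOM/DSS was -0.75, and without control replicate 2 curcumin minus control was -0.97. The GC-rich libraries gave -1.73 for curcumin minus AOM/DSS and -0.80 for curcumin minus control, and the AT-rich libraries -0.87 and -1.68.

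None of the 12 enteric neuron markers listed passed the filter. Their summed level was 1.41 to 2.48 FPKM in control, 1.62 to 3.93 in AOM/DSS and 1.33 to 2.42 in curcumin. Smooth muscle markers summed to 9.01 to 19.2 FPKM in control, 9.66 to 23.1 in AOM/DSS and 7.76 to 10.2 in curcumin, and fibroblast markers to 0.707 to 12.4, 2.46 to 22.5 and 0.344 to 4.46. Enteric glia markers summed to 65.8 to 133, 69.3 to 87.6 and 57.2 to 76.4 FPKM in the same order, most of it from Erbb3, which epithelium also expresses. The tested genes of these 3 lists (3, 2 and 2) had 0 called in any comparison. The part of these cells in the Tac1 levels was not tested. The median Tac1 to Chga ratio was 1.22 in control, 0.905 in AOM/DSS and 0.225 in curcumin, and the curcumin range of 0.142 to 0.302 overlapped that of AOM/DSS and lay below that of control.

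Tph1 encodes tryptophan hydroxylase 1, the enzyme that sets the rate of serotonin synthesis in the gut. It was at 1.55, 4.31, 1.51 and 0.863 FPKM in control, at 1.41, 0.751, 1.43 and 4.39 in AOM/DSS, and at 0.921, 1.05, 1.68 and 0.988 in curcumin. A single library was high in control (replicate 1) and in AOM/DSS (replicate 3), and the groups overlapped. Curcumin minus AOM/DSS was -0.35 (SE 0.35, adjusted p = 0.714), curcumin minus control -0.40 (adjusted p = 0.677) and AOM/DSS minus control -0.05 (adjusted p = 0.967). Mast cells also use Tph1, and 4 of their 10 markers passed the filter (Mcpt1, Mcpt2, Cma1 and Kit), with 0 called in any comparison. Kit reached 12.8 FPKM, Cma1 8.93, Mcpt1 7.12 and Mcpt2 6.73, while Cpa3 was at 0.48 or less and Fcer1a at 0.255 or less. The whole list summed to 12.7 to 18.1 FPKM in control, 12.98 to 25.9 in AOM/DSS and 11.6 to 21.3 in curcumin, and its part in the Tph1 levels was not tested.

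Downstream of Tph1 the serotonin genes held the clearest group difference found around these hormones. Slc6a4, the transporter that takes serotonin up into epithelial cells and ends its action, was at 31.7, 14.3, 20.5 and 27.3 FPKM in control. It was at 8.83, 8.35, 10.1 and 5.07 FPKM in AOM/DSS and at 20.8, 19.5, 18.3 and 21.4 in curcumin. All 4 AOM/DSS libraries were below all 8 others, and the curcumin libraries sat within the control range. Slc6a4 fell in AOM/DSS against control by 1.40 on the log2 scale (SE 0.23, adjusted p = 0.00994) and was higher in curcumin than in AOM/DSS by 1.24 (SE 0.23, adjusted p = 0.02). Curcumin minus control was -0.16 (interval -0.65 to 0.33, adjusted p = 0.812).

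The direction of Slc6a4 was the same within both GC sets of libraries. The GC-rich libraries gave -1.77 for AOM/DSS minus control and 1.141 for curcumin minus AOM/DSS, and the AT-rich libraries -1.36 and 1.34, with adjusted p between 0.0755 and 0.335 at these sizes. The fit of only the 2 groups compared put AOM/DSS minus control at an adjusted p of 0.0565. Leaving out any 1 of the 4 curcumin libraries put curcumin minus AOM/DSS at an adjusted p between 0.055 and 0.0625, with values of 1.21 to 1.28, while leaving out any control or AOM/DSS library kept it below 0.05. Absorptive colonocytes also carry this transporter, and 4 of 12 colonocyte markers fell in AOM/DSS against control while 5 of 12 rose in curcumin against AOM/DSS, where 0.813% and 0.73% of all genes did so. The part of the colonocyte markers in the Slc6a4 result was not tested.

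**Figure D4:**
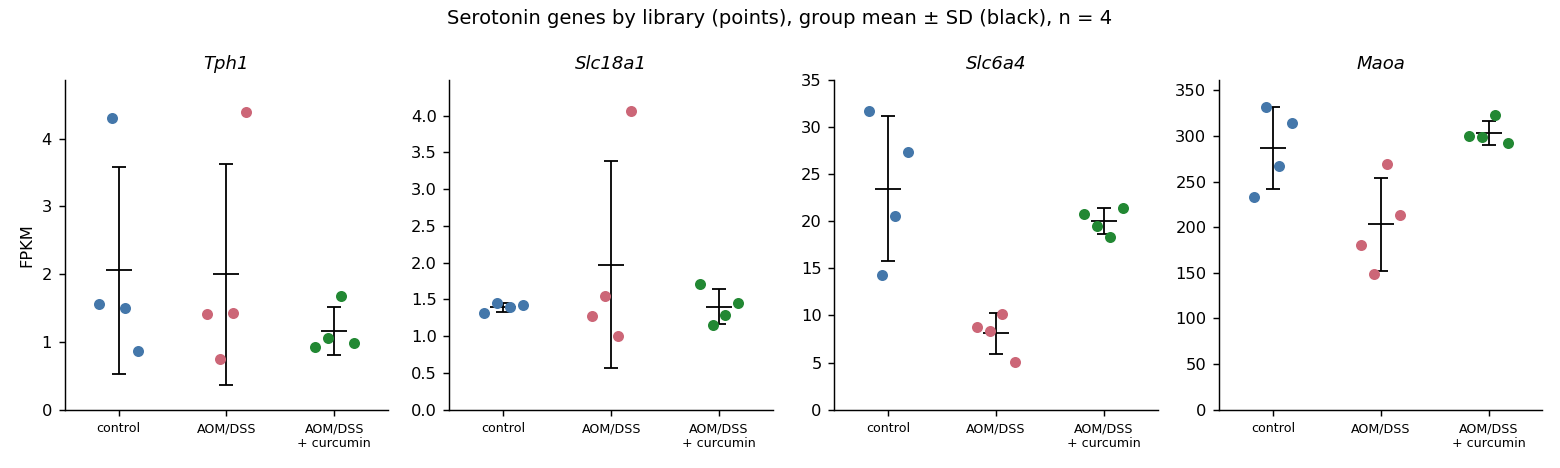
Points are libraries on a linear FPKM axis that starts at 0, and black marks are the group mean ± SD (n = 4). Slc6a4 is low in all 4 AOM/DSS libraries (5.07 to 10.1 FPKM), while Tph1 and the vesicle transporter Slc18a1 show a single high AOM/DSS library and Maoa is at 149 to 332 FPKM across groups.

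Of the 9 other serotonin genes listed, 7 passed the filter, and Slc6a4 was the only one called in any comparison. Maoa, which breaks serotonin down, was at 149 to 269 FPKM in AOM/DSS and 293 to 323 in curcumin, without overlap (0.61, SE 0.17, adjusted p = 0.122; 0.0427 with the GC group as a covariate). Against control, at 233.5 to 332 FPKM, AOM/DSS differed by -0.51 (adjusted p = 0.196). Pts, an enzyme of the cofactor that Tph1 needs, was at 34.9 to 38.8 FPKM in AOM/DSS and 43.5 to 49.4 in curcumin (0.30, adjusted p = 0.219). Slc18a1, which loads serotonin into granules, was at 1.01 to 1.71 FPKM in 11 libraries and at 4.06 in AOM/DSS replicate 3.

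Sct encodes secretin, the hormone of S cells that is also made by other endocrine cells. It was at 3.81, 5.88, 2.81 and 4.80 FPKM in control, at 8.17, 6.02, 3.58 and 25.1 in AOM/DSS, and at 15.7, 11.5, 7.75 and 4.38 in curcumin. 3 of the 4 AOM/DSS and 3 of the 4 curcumin libraries were above the highest control library, and the groups overlapped through the fourth. AOM/DSS minus control was 0.85 (SE 0.46, interval -0.15 to 1.85, adjusted p = 0.459) and curcumin minus control 0.94 (SE 0.46, interval -0.06 to 1.94, adjusted p = 0.439). Without AOM/DSS replicate 3, AOM/DSS minus control was 0.36. Within the GC-rich libraries, with their single control, curcumin minus control was 1.59 and AOM/DSS minus control 0.74. Within the AT-rich libraries these were 0.36 and 1.03. Curcumin minus AOM/DSS was 0.09 over all libraries, 0.85 within the GC-rich and -0.67 within the AT-rich ones. Sct rested on 16 to 201 reads a library.

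Nts encodes neurotensin, a peptide of N cells that are known from the distal small intestine. It was read 0, 2, 0 and 1 times in control, 9, 2, 0 and 395 times in AOM/DSS, and 1, 1, 19 and 9 times in curcumin. AOM/DSS replicate 3 thus held 395 of the 439 reads, at 22.4 FPKM, while the other 11 libraries were at 0.999 FPKM or less. Neurod1, the transcription factor that follows Neurog3, was at 0.0857 to 0.870 FPKM, on 2 to 36 reads a library. All 3 groups overlapped for both. In the fit without a filter, the Neurod1 differences were 0.04, 0.02 and 0.05 in the order of the comparisons above, each with an SE of 0.20. Neurod1 shares 7.37% of its exon bases with Cerkl on the same strand and 5.64% with Gm26755 on the opposite strand in the GRCm38 annotation, so its reads are uncertain.

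AOM/DSS replicate 3 stood apart for more than Nts. It was the highest of the 12 libraries for 5 of the 10 genes, namely Chga, Chgb, Sct, Tph1 and Nts. How many of all genes were highest or lowest in this library was not counted. The counts given here are therefore a description. This library also had the most genes above 0 of the 12, at 17127. Of 10 small intestine enterocyte genes it was highest for 4 and within the range of the others for 6. The 4 included the ileal bile acid transporter Slc10a2, at 55.5 FPKM against 1.38 to 13.3 in the other 11, and the sucrase-isomaltase gene Sis, at 7.51 against 0.0196 to 0.149. The sum of the 10 genes, 452 FPKM, lay below that of 3 other libraries. All 8 distal Hox genes, which mark the hind end of the gut, were lowest in this library: Hoxd13 was at 12.2 FPKM against 30.8 to 58.0, Hoxd10 at 0.977 against 4.19 to 12.4, and Hoxb13 at 158 against 252 to 421. It also had the highest summed levels of fibroblast (22.5 FPKM), smooth muscle (23.1) and macrophage markers (28.3). The part of this library's make-up in its hormone levels was not tested. Without it, curcumin minus AOM/DSS was 1.44 for Insl5, 1.37 for Gcg, 1.04 for Chga and 0.67 for Chgb, and none of these was called.

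**Figure D5:**
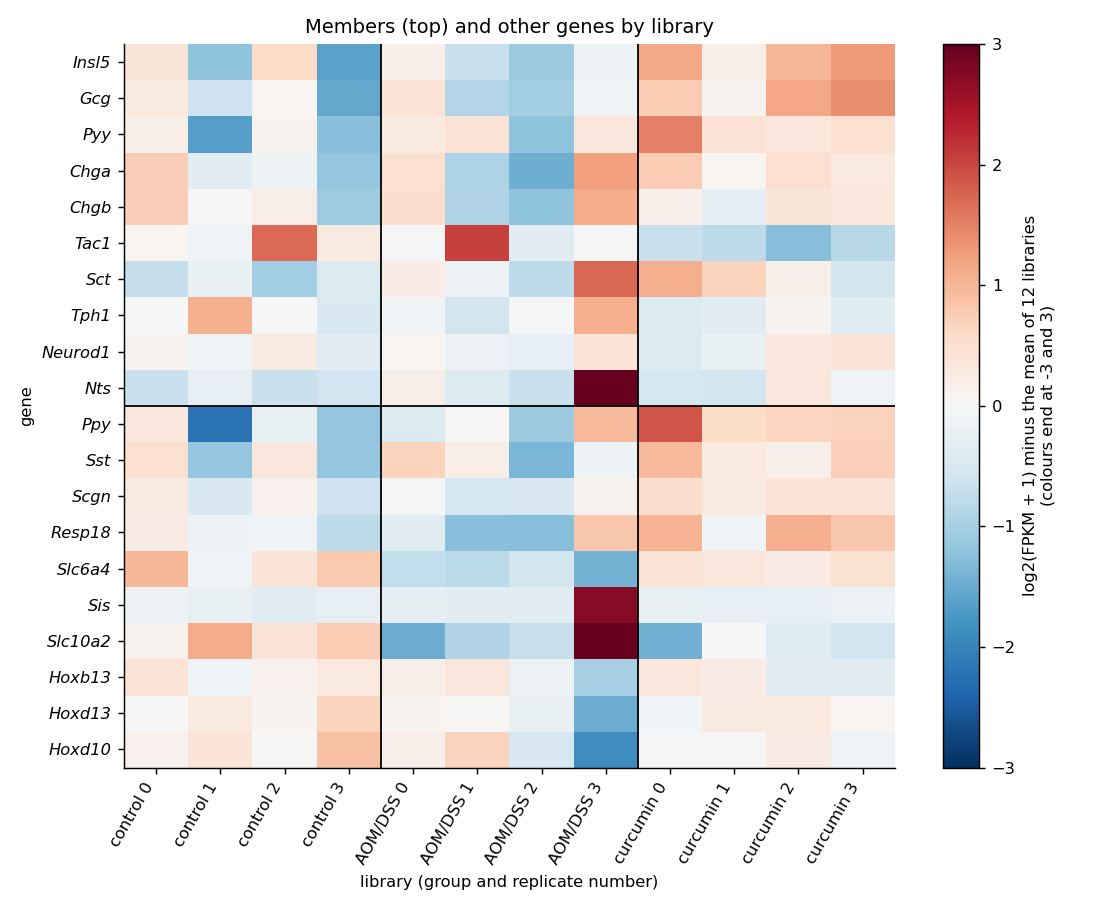
Rows are genes, columns are libraries, and colour gives log2(FPKM + 1) minus the mean of the 12 libraries, ending at -3 and 3. AOM/DSS replicate 3 is the column where Nts, Sis and Slc10a2 are high and the Hox genes low, and Tac1 is below its mean in all 4 curcumin libraries.

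Other hormone genes of the gut were mostly below the filter. Of 12 listed, 4 passed and none was called. Ppy, the pancreatic polypeptide gene that lies next to Pyy in the annotation, was at 1.23 to 11.9 FPKM in control, 3.81 to 19.1 in AOM/DSS and 14.1 to 36.9 in curcumin. The curcumin and control libraries did not overlap, with a difference of 1.76 (SE 0.53, adjusted p = 0.207). Within the GC-rich and AT-rich libraries it was 0.89 and 1.87. Somatostatin (Sst), the product of D cells, was at 0.658 to 4.22 FPKM in control, 0.437 to 4.93 in AOM/DSS and 3.11 to 6.24 in curcumin, and curcumin minus control was 0.90 (adjusted p = 0.45). Gast was at 0 in every library.

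Of 20 genes for granule release and prohormone cutting, 11 passed the filter and none was called. Resp18, a protein of neuroendocrine granules, was at 1.23 to 8.58 FPKM in AOM/DSS and 4.04 to 10.7 in curcumin (1.22, SE 0.42, adjusted p = 0.202). Without AOM/DSS replicate 3 its difference was 1.67 and passed the threshold (adjusted p = 0.0444). Secretagogin (Scgn), a calcium sensor of endocrine cells, was at 0.399 to 1.58 FPKM in control, 0.49 to 1.33 in AOM/DSS and 1.60 to 2.12 in curcumin. Its curcumin libraries were above the other 8, by 0.64 over AOM/DSS (adjusted p = 0.195) and 0.58 over control (adjusted p = 0.316). Rph3al, which takes part in granule release, was higher in AOM/DSS (5.40 to 8.72 FPKM) than in curcumin (3.37 to 4.56), by 0.55 on the log2 scale without passing the threshold (adjusted p = 0.0997; 0.0328 with the GC group as a covariate). The cutting enzymes Pcsk1 (1.60 to 4.29 FPKM over all libraries) and Cpe (2.04 to 7.68) overlapped in all groups, and Pcsk2 was at 0 throughout.

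Of 19 transcription factors of the lineage 5 passed the filter, and none was called. Neurog3, which commits progenitors to the lineage, was at 1.42 to 1.92 FPKM in AOM/DSS and 2.01 to 2.84 in curcumin (0.39, SE 0.18, adjusted p = 0.341), and control spanned both at 1.16 to 2.87. Hhex, a factor of D cells, was at 0.700 to 0.845 FPKM in curcumin and 1.54 to 3.78 in control (-0.79, SE 0.22, adjusted p = 0.186).

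Among 17 receptors that sense nutrients and microbial products, 3 passed the filter. Ffar2, a receptor for short-chain fatty acids found on L cells and on leukocytes, was at 0.963 to 3.62 FPKM in control and at 4.04 to 9.19 in AOM/DSS. It rose in AOM/DSS against control by 1.32 (SE 0.29, adjusted p = 0.0497). This call was at the edge of the threshold: the adjusted p was 0.0195 to 0.174 when 1 library was left out, and 0.102 without the filter on low genes. The 5 macrophage markers that passed were all higher in mean in AOM/DSS, with 0 called, and their part in the Ffar2 result was not tested. Ffar4, a receptor for long-chain fatty acids, was at 13.9 to 20.8 FPKM in AOM/DSS against 8.20 to 12.8 in control (0.66, adjusted p = 0.0892) and 7.86 to 11.8 in curcumin (-0.72 for curcumin minus AOM/DSS, adjusted p = 0.0673). Both comparisons had groups without overlap.

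Of 21 genes for hormone receptors and hormone breakdown, 4 passed the filter and none was called. Npy1r, a receptor for peptide YY, was at 2.88 to 5.98 FPKM in control, 2.03 to 2.91 in AOM/DSS and 2.13 to 5.30 in curcumin (AOM/DSS minus control -0.50, adjusted p = 0.375). Dpp4, the protease that inactivates GLP-1, overlapped in all groups at 5.61 to 9.46 FPKM. Ntsr1, Ntsr2 and Npy4r were at 0 in every library.

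The genes whose pattern over the 12 libraries was most like each member's were sought among all tested genes and are a description. For Insl5 they were Scgn (r = 0.95, rho = 0.93) and Cfap20 (0.934 and 0.909), and for Gcg they were Scgn (0.916 and 0.895) and Dpp7 (0.909 and 0.825). The closest to Pyy was its neighbour Ppy (0.94 and 0.86), followed by H2afv. Spon2 led for Chga (0.873 and 0.881) and for Chgb (0.873 and 0.776), and Resp18 was next for Chga (0.864 and 0.846). Tac1 was closest to Lbp and Nsf, Sct to Amn and Acrbp, and Tph1 to Sesn1 and Car8, with r between 0.872 and 0.919. The genes compared share the depth and the GC set of each library.

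Levels of markers of other cell types are given here beside the hormones. The 5 red blood cell genes were lower in all curcumin libraries than in all control libraries, where 4.55% of all genes were lower without overlap, and 0 of 5 were called. Their summed level was 25.9 to 37.1 FPKM in curcumin, 17.5 to 326 in AOM/DSS and 58.8 to 326 in control. Macrophage markers summed to 3.00 to 10.4 FPKM in curcumin, 9.35 to 28.3 in AOM/DSS and 3.76 to 11.6 in control. Goblet cell markers were all 12 higher in mean in curcumin than in control, 6 of them without overlap, where 3.72% of all genes were. Of these 12, 0 were called, where 0.0913% of all genes were called higher and 0.0498% lower. In AOM/DSS against control 2 of the 12 rose, where 0.456% of all genes did. The part of these cells in the levels of Insl5, Gcg, Pyy and Tac1 was not tested. The summed level of the 10 members was 88.4 to 264 FPKM in control, 93.8 to 307 in AOM/DSS and 246 to 469 in curcumin, so all 3 groups overlapped.

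The median difference over the 8 tested members was 0.03 for AOM/DSS minus control, 0.42 for curcumin minus AOM/DSS and 0.78 for curcumin minus control. Over all 12052 genes it was 0.02, -0.01 and 0.01. In both comparisons with curcumin, 6 of the 8 genes were higher in mean and 2, Tac1 and Tph1, lower, and in AOM/DSS against control 5 were higher. Within the GC-rich libraries 4 of 8 were higher in curcumin than in control, with a median of -0.09, and within the AT-rich libraries 6 of 8, with a median of 0.79. For curcumin minus AOM/DSS these were 6 of 8 (0.62) and 5 of 8 (0.45), and for AOM/DSS minus control 3 of 8 (-0.43) and 7 of 8 (0.28). Since Insl5 moved with Gcg and Chga with Chgb, these counts do not rest on 8 separate measurements.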

How the data were processed

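The authors deposited 1 FPKM value per gene symbol and library, without a header line; the unit is given by the names of the files. The submitters' processing notes list the mm9 build, featureCounts 1.5.1, DESeq2 1.14.1, R 3.4.0, Picard, Bowtie2 2.2.6 and TopHat2 2.1.1, without roles. The strand setting and annotation are not given in the sources used here. For all 19233 genes above 0, the deposited FPKM were whole multiples of a step (tolerance 0.001), which gave reads per library of 5567988 to 15968416. A further 5158 symbols were at 0 throughout. Depth per gene limits the low members, and read counts cover counting error only.

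Values were tested as log2(FPKM + 1), pseudocount 1, with limma 3.58.1 in R 4.3.3, eBayes with an intensity trend, and Benjamini-Hochberg adjustment over the 12052 genes with at least 1 FPKM in 4 libraries. All 12 libraries entered 1 model with 3 group means and 9 residual degrees of freedom, and the script was tested on simulated data. A library counted as GC-rich where its deviations correlated positively with gene GC content (known for 99.3% of tested genes). Named genes were the 10 members, up to 4 genes of each other list (called genes first, then the largest differences) and the 2 genes most like each member. Outside that rule, Gast, Pcsk1, Pcsk2, Slc18a1, Sis, Hoxb13, Cpa3, Fcer1a, Ntsr1, Ntsr2 and Npy4r were chosen after their values were seen. The members and the lists were chosen with earlier results of these data known. Promoter windows are RefSeq's on GRCm38.p6, matched by symbol for 10 of 10 members. Alternatives changed the pseudocount, filter, scaling, trend, weights and libraries, added the GC group or a replicate block, or used voom on the recovered reads.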

Additional observations from a re-analysis of the deposited data

Results flagged for a closer look

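In 5 of the 30 groups of 4 libraries formed by the 10 genes and 3 groups, 1 library lay so far from the others that its gap to the nearest, as a share of the group's range, exceeded Dixon's 95% critical value. For normally distributed values chance gives this in about 1 in 20 groups. The ratio was taken on FPKM without logs, and several of the genes are correlated, so 5 of 30 cannot be set against that rate. Pyy was at 36.76 FPKM in AOM/DSS replicate 2, below the other 3, and at 247.3 FPKM in curcumin replicate 0, above the other 3. Tac1 was at 33.15 FPKM in control replicate 2 and at 42.57 FPKM in AOM/DSS replicate 1, each above the rest of its group. Nts was at 22.42 FPKM in AOM/DSS replicate 3, which rests on 395 reads.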

How the results depend on the processing

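Tph1, at 4.39 FPKM or less, did not enter the alternative with a filter of 5 FPKM. Otherwise the 8 tested members gave 0 calls in each comparison under every alternative run, except with library weights for curcumin against control. There 3 were called: Gcg (1.89, adjusted p = 0.0169), Insl5 (1.86, adjusted p = 0.0208) and Tac1 (-1.41, adjusted p = 0.0416). The same setting called 491 of all 12052 genes in that comparison, against 17 in the main fit. The cause was not tested. Over the other alternatives of that comparison, fits leaving out a library aside, Gcg ranged from 0.14 to 1.98 and Insl5 from 0.31 to 1.89. Reads per library and 4 libraries a group limit Sct, Neurod1 and Nts most.

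The number of genes called was 153, 130 and 17 in the 3 comparisons in the order above. It became 82, 86 and 2 with the replicate block, 288, 468 and 491 with library weights, 238, 272 and 40 with the GC group as a covariate, 7, 8 and 0 in the GC-rich libraries and 4, 1 and 0 in the AT-rich libraries. The GC-rich and AT-rich sets hold 5 and 7 of the 12 libraries, and the part of this smaller size in their counts was not tested. Fitting only the groups compared gave 54 and 85 in the first pair, and for curcumin against control a pseudocount of 0.1 gave 11 and no filter 7. Leaving out 1 library gave 53 to 201, 48 to 149 and 4 to 35. Of the 17 genes called for curcumin against control 11 were higher, against 7 of 13 after scaling to a common sum and 12 of 23 after quantile scaling; with voom 10 were higher and 12 lower, with library weights 204 and 287, and without control replicate 2 9 and 13. Replicate numbers gave no clear pairing of the libraries. Same-number correlations ran from -0.333 to 0.456, with 6 of 12 over 0.1, and 8 of 24 were best with their own number. The GC set follows the replicate number in AOM/DSS and curcumin, so this check cannot settle whether libraries were paired.

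Differences near 0 changed sign under some settings. For AOM/DSS minus control the GC-rich libraries gave Chga -0.95, Gcg -0.54, Insl5 -0.62 and Tac1 0.93, the AT-rich libraries Chgb 0.25 and Tph1 0.31, the GC covariate Chga -0.0229, Insl5 -0.0324 and Tph1 0.0589, library weights Chgb 0.38 and Tph1 0.19, and voom Insl5 -0.0213 and Tph1 0.16. For curcumin minus control the GC-rich libraries gave Chga -0.32 and Chgb -0.80. Sct in curcumin minus AOM/DSS was -0.37 with library weights, -0.0623 with voom and -0.67 in the AT-rich libraries. With 1 library left out, AOM/DSS minus control ranged from -0.41 to 0.49 for Chga, -0.50 to 0.28 for Chgb, -0.33 to 0.28 for Gcg, -0.35 to 0.39 for Insl5, -0.63 to 0.33 for Tac1 and -0.38 to 0.26 for Tph1. Chgb ranged from -0.10 to 0.67 and Sct from -0.26 to 0.58 in curcumin minus AOM/DSS, and Chgb from -0.17 to 0.43 in curcumin minus control. Among the other genes named, only Slc6a4 and Ffar2 lost a call, and library weights added calls for Ppy, Scgn, Maoa, Rph3al, Ffar2, Ffar4, Hhex and Npy1r, with an adjusted p of 0.0152 to 0.0458. In curcumin minus AOM/DSS the GC covariate added Maoa (0.0427) and Rph3al (0.0328), and leaving out AOM/DSS replicate 2 added Maoa (0.046) and AOM/DSS replicate 3 Resp18 (0.0444).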
